A study of Mus musculus with 24 samples.

Results

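The cadherins and protocadherins of the mouse lens were taken as every row of the deposited count table whose symbol begins with Cdh followed by a number or with Pcdh, leaving out the endothelial cadherin Cdh5. The rule gave 52 of 12611 symbols: 4 type I classical cadherins (Cdh1, Cdh2, Cdh3, Cdh4), 5 type II cadherins (Cdh6, Cdh11, Cdh18, Cdh20, Cdh24), 2 other cadherins (Cdh17, Cdh23), 8 non-clustered protocadherins, and 33 clustered protocadherins, of which 1 is a Pcdha, 11 are Pcdhb and 21 are Pcdhg genes. All 52 passed the filter on low counts. The study asked how gene expression differs between differentiating fiber cells and the epithelium they arise from, and how it changes over late gestation and birth. Lens fiber and lens epithelium were microdissected from CD1 mice, an outbred stock, from embryos of E14.5, of E16.5 and of E18.5 (days after conception) and from newborns of P0.5 (days after birth), and each of the 8 groups holds 3 biological replicates. No genetic change or treatment is given for any group, and all 8 groups share the strain. No source used here says whether a replicate pooled several animals.

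Cadherins are calcium-dependent adhesion proteins that span the cell membrane. The classical types bind like molecules on the neighbouring cell and are tied to actin by catenins at the adherens junction. Epithelial cells of the lens hold both E-cadherin (Cdh1) and N-cadherin (Cdh2), whereas fiber cells are joined chiefly by N-cadherin. Protocadherins lack the catenin-binding tail, and the clustered ones are best known from neurons, where each cell uses its own combination of isoforms from a few adjoining gene arrays.

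Promoter windows are shown for 3 members that changed with stage, Pcdh17 in fiber and Cdh20 and Pcdh10 in epithelium. Of the members, 11 were matched to the RefSeq promoter table (GRCm38.p6), which holds the 250 bases before and 50 bases after each annotated start. Each window is 300 bases long, 5′ to 3′ on the gene's strand, and capitals mark the letters of a searched motif on either strand. The Pcdh17 window lies at chr14:84443313-84443612, that of Cdh20 at chr1:104768270-104768569 and that of Pcdh10 at chr3:45378148-45378447, all on the plus strand.
Pcdh17: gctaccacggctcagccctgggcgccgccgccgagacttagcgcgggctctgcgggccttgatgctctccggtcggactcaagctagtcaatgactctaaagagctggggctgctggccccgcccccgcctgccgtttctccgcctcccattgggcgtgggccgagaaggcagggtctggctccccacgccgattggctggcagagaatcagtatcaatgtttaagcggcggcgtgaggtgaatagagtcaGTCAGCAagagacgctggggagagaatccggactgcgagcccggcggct
Cdh20: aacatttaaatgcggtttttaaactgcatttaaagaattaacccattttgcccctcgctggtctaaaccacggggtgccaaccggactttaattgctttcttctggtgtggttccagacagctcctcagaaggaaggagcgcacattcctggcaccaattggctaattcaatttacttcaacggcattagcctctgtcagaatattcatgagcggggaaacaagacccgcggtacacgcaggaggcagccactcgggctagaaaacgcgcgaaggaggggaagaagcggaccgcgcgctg
Pcdh10: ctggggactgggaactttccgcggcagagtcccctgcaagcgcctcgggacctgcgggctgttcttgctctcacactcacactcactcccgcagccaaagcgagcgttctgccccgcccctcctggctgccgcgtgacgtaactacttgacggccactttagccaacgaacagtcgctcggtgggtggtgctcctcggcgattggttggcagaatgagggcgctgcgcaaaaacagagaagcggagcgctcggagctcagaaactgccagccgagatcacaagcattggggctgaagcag
The motifs searched were TGCTGAC, a half-site of the Maf factors, and CAGGTG, the E-box bound by Snai and Zeb repressors. The first was found on the minus strand of the Pcdh17 window, beginning at base 252 counted from its 5′ end, and in no other window searched. It is present in 4.7% of 32851 RefSeq promoters. CAGGTG is present in 20.2% of them. Among the 11 members matched, it was found in the window of Pcdh7 alone, at base 283. Cdh1, Cdh2, Cdh3, Cdh4, Cdh11 and Cdh17 were not among the members matched, so neither motif was searched for in their promoters. The 3 windows printed hold 26 (Pcdh17), 18 (Cdh20) and 24 (Pcdh10) CpG dinucleotides, against a median of 7 over all promoters. Member windows not printed hold from 5 (Cdh23) to 30 (Cdh24), so the count does not set the 3 apart. A match describes these letters and is no evidence of binding.

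Total counts were 13010174 to 21617737 in fiber libraries and 7658794 to 11819117 in epithelium libraries. Crystallins took 23.3% to 43.9% of the counts in fiber and 1.66% to 4.28% in epithelium, and the ribosomal precursor Rn45s took 3.98% to 28.9% in fiber and 5.29% to 17.4% in epithelium. Levels below are CPM, counts scaled to a common library size after TMM adjustment (a scaling that assumes most genes do not differ). A gene passed the test at a Benjamini-Hochberg adjusted p under 0.05 in edgeR's quasi-likelihood test over 12427 genes and a difference of at least 2-fold, and rose, fell, higher and lower are used of members in that sense. Of the markers of each tissue, 5 of 5 fiber genes were higher in fiber, and 3 of 3 epithelium genes other than Cdh1, itself a member, were lower.

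Most members that distinguished the tissues were lower in fiber. Averaged over the 4 stages, 4 of 52 members were higher in fiber than in epithelium, where 15.7% of all genes were, and 23 were lower, where 22.2% of all genes were. The 4 higher members were Cdh17, Cdh23, Pcdh17 and Pcdhac2. The median log2 difference was -0.90 over members and -0.03 over all genes tested. Scaled by library size alone, the median of all genes lay at -1.24, 2 members were higher and 47 lower, against 4.72% and 59.7% of all genes, and Cdh23 (log2 -0.0096) and Pcdh17 (log2 0.84) were no longer called. With crystallins left out of the library sizes the median of all genes lay at -0.70, 3 members were higher and 42 lower, against 7.12% and 38.9% of all genes, and Cdh23 was not called. Relative to the median of all genes, the members' median lay at -0.87 with TMM, -0.87 by library size alone and -0.88 without crystallins. A change of scaling shifts all genes by nearly the same amount. These values could therefore hardly differ, and their likeness is no test of the result. In dissected tissue, fewer cells of a type and less RNA per cell cannot be told apart.

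With TMM scaling more members were lower in fiber at the later pair of stages. At E14.5 4 members were higher and 15 lower in fiber, against 14% and 19.4% of all genes. At E16.5 4 were higher and 12 lower, against 14.6% and 20.4%. At E18.5 3 were higher and 34 lower, against 17.4% and 24.2%. At P0.5 3 were higher and 39 lower, against 17.5% and 24.5%. By library size alone the members lower in fiber numbered 29, 45, 47 and 48 in stage order, where 41.4%, 54.2%, 68.9% and 67.9% of all genes were lower. With crystallins left out of the library sizes they numbered 21, 34, 46 and 45, where 28.3%, 37.1%, 48.1% and 41.3% of all genes were lower, so the contrast in counts between early and late stages depended on the scaling. Relative to the median of all genes, the members' median in stage order lay at -0.35, -0.47, -1.41 and -1.26 with TMM. By library size alone it lay at -0.35, -0.48, -1.40 and -1.26, a likeness that the shared shift of all genes brings about. With TMM Cdh17 and Pcdhac2 were higher in fiber at all 4 stages, and 11 members were lower at all 4: Cdh1, Cdh3, Cdh11, Cdh18, Cdh24, Pcdh1, Pcdh9, Pcdh10, Pcdh12, Pcdh18 and Pcdh19. Cdh2, Cdh4 and 7 Pcdhg genes passed at no stage.

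**Figure D1:**
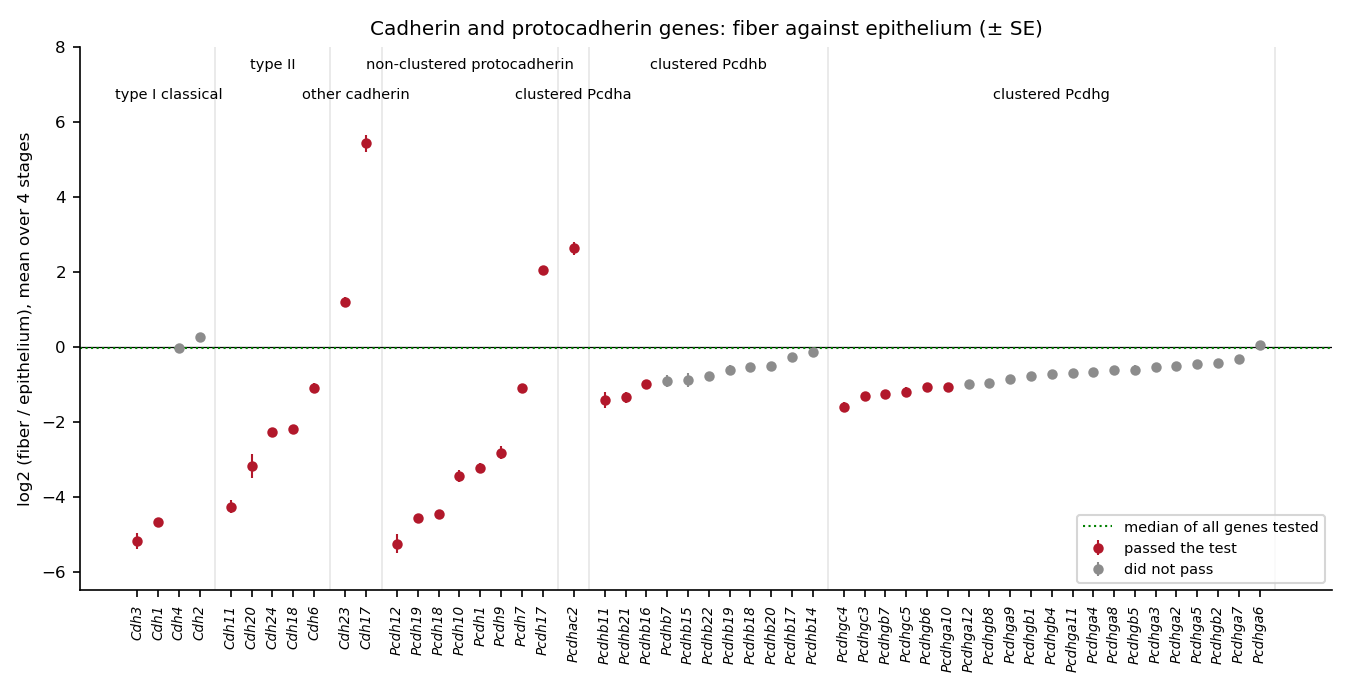
Log2 fiber to epithelium difference of all 52 members, averaged over 4 stages, by family (points, with SE bars; red passed the test, gray did not; dotted line, median of all genes tested at -0.03). Cdh17 stands highest at 5.43 and Pcdh12 lowest at -5.26, and with TMM scaling all 11 Pcdhb genes and 20 of 21 Pcdhg genes lie below 0.

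Among the type I cadherins, Cdh1 and Cdh3 were lower in fiber at every stage, while Cdh2 and Cdh4 stayed within 2-fold of epithelium. Cdh1 encodes E-cadherin and lies at chr8:106603351-106670246 on the plus strand of GRCm38, downstream of its neighbour Cdh3 at chr8:106510891-106557297. Fiber Cdh1 stood at 32.9, 28.2 and 32.2 CPM at E14.5, then 16.8, 12.3 and 16.3 at E16.5, then 15.3, 15.2 and 19.1 at E18.5, then 15.8, 20.4 and 16.8 at P0.5. Epithelial Cdh1 stood at 493, 494 and 525 CPM at E14.5, then 581, 532 and 545 at E16.5, then 459.7, 517 and 389 at E18.5, then 451, 436 and 482 at P0.5. Every fiber library lay far below every epithelium library, and fiber was highest at E14.5. The averaged difference was log2 -4.67 ± 0.06 SE (adjusted p = 7.04e-27), 25.4-fold lower in fiber. At P0.5 it was log2 -4.68 ± 0.12 SE, and at E14.5 log2 -4.02 ± 0.11 SE. The change of the difference between these stages (log2 -0.66 ± 0.15 SE) was under 2-fold.

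Cdh2 encodes N-cadherin and had the highest count of all members in fiber. Fiber Cdh2 stood at 660.2, 639 and 662 CPM at E14.5, then 677, 681 and 678 at E16.5, then 720.1, 666 and 686 at E18.5, then 723, 719.9 and 701 at P0.5. Epithelial Cdh2 stood at 583, 601 and 599 CPM at E14.5, then 686, 711 and 663 at E16.5, then 509, 494 and 439 at E18.5, then 536, 523 and 522 at P0.5. Fiber Cdh2 lay above every epithelium library at E14.5, E18.5 and P0.5 and overlapping epithelium at E16.5. The averaged difference was log2 0.27 ± 0.03 SE (adjusted p = 7.13e-10), below the 2-fold threshold, and it lay at -0.94 by library size alone and at -0.40 with crystallins left out, on the other side of 0. Because both genes were measured in the same library, their ratio does not depend on that scaling. Per kilobase of exon, Cdh2 exceeded Cdh1 in fiber by 11.96-fold ± 0.78 at E14.5, then 25.97-fold ± 4.70 at E16.5, then 24.02-fold ± 3.23 at E18.5, then 23.2-fold ± 2.94 at P0.5 (SD, n = 3 each). In epithelium Cdh1 exceeded Cdh2 by 1.496-fold ± 0.047, 1.42-fold ± 0.091, 1.67-fold ± 0.15 and 1.53-fold ± 0.089 at the same stages. Thus, per kilobase, N-cadherin RNA outweighed E-cadherin RNA in all 12 fiber libraries, and the reverse held in all 12 epithelium libraries. Without division by exon length, epithelial Cdh2 lay above Cdh1 in every library except E18.5 replicate 2 (494 against 517 CPM). The order in epithelium therefore rests on the exon lengths used, while in fiber Cdh2 was higher on both measures.

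Cdh4, or R-cadherin, was first known from the retina and pairs with N-cadherin. Fiber Cdh4 stood at 124, 127 and 140.2 CPM at E14.5, then 104, 109.7 and 94.97 at E16.5, then 86.9, 69.01 and 80.4 at E18.5, then 69.9, 75.4 and 60.4 at P0.5. Epithelial Cdh4 stood at 87.6, 91.2 and 112 CPM at E14.5, then 104, 118 and 107 at E16.5, then 104, 103 and 81.7 at E18.5, then 81.3, 86.1 and 67.5 at P0.5. Fiber Cdh4 lay above every epithelium library at E14.5 and overlapping epithelium at E16.5, E18.5 and P0.5. Its averaged difference was log2 -0.03 ± 0.06 SE (adjusted p = 0.574) with TMM and -1.24 by library size alone, where it was called. Within fiber the Cdh4 difference of P0.5 over E14.5 was log2 -0.92 ± 0.11 SE, which did not reach 2-fold. Cdh3, or P-cadherin, is found in basal layers of many epithelia. In fiber Cdh3 was near the limit of detection, at 0.199, 0.2804 and 0.422 CPM at E14.5, then 0.298, 0.0831 and 0 at E16.5, then 0.173, 0.532 and 0.538 at E18.5, then 0, 0.319 and 0 at P0.5. Epithelial Cdh3 stood at 3.96, 5.52 and 4.62 CPM at E14.5, then 7.98, 10.2 and 6.07 at E16.5, then 9.58, 7.99 and 10.1 at E18.5, then 13.9, 10.5 and 10.3 at P0.5. The tissues did not overlap at any stage, and epithelium rose by log2 1.29 ± 0.22 SE between E14.5 and P0.5 (adjusted p = 2.47e-05). The averaged difference was log2 -5.19 ± 0.21 SE, with only 4 to 13 fiber counts summed over the 3 libraries of a stage, so its size is loosely fixed.

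**Figure D2:**
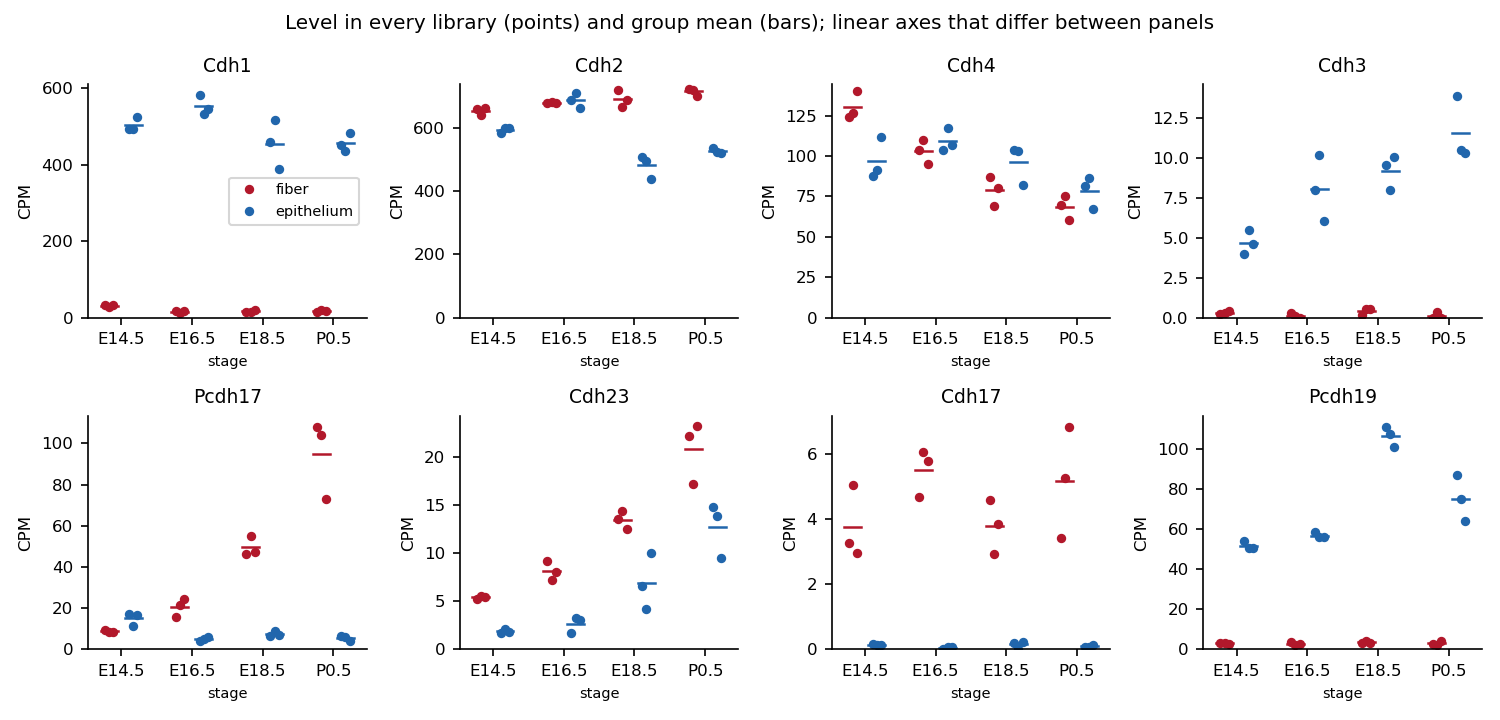
CPM of 8 members by stage in fiber (red, left) and epithelium (blue, right), each point a library and each bar the mean of 3, on linear axes that differ between panels. Cdh1, Cdh3 and Pcdh19 lie apart by tissue at every stage, Cdh2 and Cdh4 lie close together, and Pcdh17 in fiber climbs between E14.5 and P0.5, to 72.7 to 108 CPM.

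All 5 type II cadherins were lower in fiber on the averaged comparison, and 4 of the 5 rose in epithelium between E14.5 and P0.5. Cdh11 (chr8:102632095-102785642, minus strand) is typical of mesenchyme and bone-forming cells. Fiber Cdh11 stood at 2.25, 1.59 and 2.698 CPM at E14.5, then 3.27, 1.91 and 1.401 at E16.5, then 1.04, 1.73 and 1.38 at E18.5, then 1.14, 3.03 and 1.16 at P0.5. Epithelial Cdh11 stood at 16.3, 17.4 and 13.5 CPM at E14.5, then 9.15, 10.9 and 23.1 at E16.5, then 82.01, 85.7 and 121 at E18.5, then 91.7, 76.3 and 70.4 at P0.5. Fiber Cdh11 lay below every epithelium library at each of the 4 stages, and epithelium stepped up between E16.5 and E18.5. The 11 summed markers of retina and ciliary margin moved with it in epithelium, at 305 to 428 CPM at E18.5 against 15.6 to 62.4 CPM at E16.5, and their part was not tested. The averaged Cdh11 difference was log2 -4.27 ± 0.17 SE (adjusted p = 3.41e-17). The tissue difference changed by log2 -2.54 ± 0.59 SE between E14.5 and P0.5 (adjusted p = 0.00139).

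Cdh20 (chr1:104768529-104995481, plus strand) is known from the developing nervous system. Fiber Cdh20 stood at 0.133, 0.374 and 0.253 CPM at E14.5, then 0.694, 0.582 and 0.2802 at E16.5, then 0.777, 0.798 and 0.691 at E18.5, then 0.3798, 1.12 and 0.315 at P0.5. Epithelial Cdh20 stood at 0.475, 1.24 and 0.36 CPM at E14.5, then 1.09, 0.582 and 2.77 at E16.5, then 16.6, 17.5 and 31.7 at E18.5, then 21.9, 21.5 and 18.7 at P0.5. Fiber Cdh20 lay below every epithelium library at E18.5 and P0.5 and overlapping epithelium at E14.5 and E16.5. Within epithelium Cdh20 rose by log2 4.89 ± 0.38 SE between E14.5 and P0.5 (adjusted p = 2.17e-10), the largest rise of any member there. Cdh6, a kidney and neural cadherin, moved in opposite directions in the 2 tissues. Fiber Cdh6 stood at 25.9, 21.9 and 27.3 CPM at E14.5, then 14.7, 16.54 and 16.4 at E16.5, then 10.5, 9.04 and 7.14 at E18.5, then 11.3, 10.6 and 11.3 at P0.5. Epithelial Cdh6 stood at 13.1, 11.2 and 19.02 CPM at E14.5, then 9.38, 14.6 and 17.8 at E16.5, then 54.2, 62.1 and 87.2 at E18.5, then 75.4, 60.5 and 41.8 at P0.5. With TMM scaling fiber Cdh6 lay above every epithelium library at E14.5, below every epithelium library at E18.5 and P0.5 and overlapping epithelium at E16.5. Between E14.5 and P0.5 it fell in fiber (log2 -1.18 ± 0.25 SE, adjusted p = 3.53e-04; it fell with every scaling run) and rose in epithelium by log2 2.02 ± 0.22 SE (adjusted p = 3.81e-08).

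Cdh18, a neural cadherin, rose in epithelium without a step at E18.5. Fiber Cdh18 stood at 1.79, 1.59 and 1.27 CPM at E14.5, then 1.39, 1.08 and 1.68 at E16.5, then 1.47, 2.53 and 2.46 at E18.5, then 0.506, 1.52 and 1.68 at P0.5. Epithelial Cdh18 stood at 3.56, 3.796 and 3.12 CPM at E14.5, then 7.05, 6.75 and 7.797 at E16.5, then 7.85, 7.48 and 10.5 at E18.5, then 11.4, 11.02 and 15.1 at P0.5. Fiber Cdh18 lay below every epithelium library at each of the 4 stages, and the rise in epithelium was log2 1.85 ± 0.19 SE between E14.5 and P0.5 but 0.26 between E16.5 and E18.5, which did not pass. Cdh24 binds catenins like other type II cadherins. Fiber Cdh24 stood at 2.12, 3.08 and 3.204 CPM at E14.5, then 1.89, 1.91 and 1.49 at E16.5, then 0.691, 1.06 and 1.08 at E18.5, then 0.633, 0.638 and 1.26 at P0.5. Epithelial Cdh24 stood at 8.31, 8.35 and 7.92 CPM at E14.5, then 5.66, 5.82 and 8.17 at E16.5, then 7.18, 6.46 and 7.92 at E18.5, then 4.897, 5.51 and 6.12 at P0.5. Fiber Cdh24 lay below every epithelium library at each of the 4 stages, and within fiber Cdh24 fell (log2 -1.71 ± 0.29 SE, adjusted p = 2.45e-05).

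Cdh17 and Cdh23, which belong to neither classical type, were higher in fiber. Cdh17 (chr4:11758147-11817895, plus strand), the liver-intestine cadherin, has a short tail without a catenin-binding region. Fiber Cdh17 stood at 3.25, 5.05 and 2.95 CPM at E14.5, then 4.66, 6.07 and 5.79 at E16.5, then 4.58, 2.93 and 3.84 at E18.5, then 3.42, 5.27 and 6.82 at P0.5. Epithelial Cdh17 stood at 0.158, 0.138 and 0.12 CPM at E14.5, then 0, 0.0582 and 0.07498 at E16.5, then 0.1995, 0 and 0.233 at E18.5, then 0.0644, 0.0641 and 0.1103 at P0.5. Its level in epithelium rested on few counts. Summed over the 3 libraries of a stage, in stage order, there were 138, 182, 125 and 158 counts in fiber and 6, 2, 6 and 4 in epithelium, so the log2 difference of 5.43 ± 0.23 SE (adjusted p = 5.50e-17) is loosely fixed in size. Cdh23 forms the tip links of sensory hair cells. Fiber Cdh23 stood at 5.24, 5.51 and 5.396 CPM at E14.5, then 9.23, 7.23 and 8.03 at E16.5, then 13.6, 14.4 and 12.5 at E18.5, then 22.2, 17.2 and 23.2 at P0.5. Epithelial Cdh23 stood at 1.66, 2.07 and 1.8 CPM at E14.5, then 1.63, 3.26 and 3.07 at E16.5, then 6.59, 4.16 and 10.01 at E18.5, then 14.8, 13.8 and 9.49 at P0.5. Fiber lay above epithelium in every library of each stage with TMM scaling, and both tissues rose, fiber by log2 1.95 ± 0.22 SE and epithelium by log2 2.77 ± 0.26 SE. The tissue difference passed at E14.5 and E16.5, and at P0.5 (log2 0.71 ± 0.20 SE) it was under 2-fold.

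Of the 8 non-clustered protocadherins, 7 were lower in fiber and Pcdh17 was higher. Pcdh17 (chr14:84443563-84539002, plus strand) organises contacts of growing axons and synapses through the actin machinery. Fiber Pcdh17 stood at 9.28, 8.22 and 8.18 CPM at E14.5, then 15.6, 21.2 and 24.4 at E16.5, then 46.2, 55.1 and 47.2 at E18.5, then 108, 104 and 72.7 at P0.5. Epithelial Pcdh17 stood at 16.9, 11.4 and 16.4 CPM at E14.5, then 3.798, 4.83 and 5.698 at E16.5, then 6.19, 8.58 and 6.98 at E18.5, then 6.38, 5.702 and 4.14 at P0.5. Fiber Pcdh17 lay above every epithelium library at E16.5, E18.5 and P0.5 and below every epithelium library at E14.5. Between E14.5 and P0.5 it rose in fiber by log2 3.46 ± 0.18 SE (11-fold, adjusted p = 3.20e-13) and fell in epithelium (log2 -1.47 ± 0.20 SE, adjusted p = 1.73e-06). The tissue difference changed by log2 4.94 ± 0.27 SE (adjusted p = 5.45e-12), the only positive change of a tissue difference among members to pass. Stage by stage the log2 tissue difference ran from -0.79 at E14.5, which did not reach 2-fold, through 2.09 and 2.77 to 4.14 at P0.5. Pcdh17 was also the only member to rise in fiber between E16.5 and E18.5 with TMM (log2 1.27 ± 0.17 SE), and by library size alone that step did not pass.

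Pcdh7, an adhesion molecule of bone, heart and nerve cells, had the highest mean level per kilobase over the 12 libraries of each tissue among the protocadherins that share no exon. At P0.5 fiber Pcdh17 averaged 7.31 ± 1.49 CPM per kb and fiber Pcdh7 6.93 ± 0.23 CPM per kb (SD, n = 3), a difference within their spread. Fiber Pcdh7 stood at 51.04, 50.2 and 45.02 CPM at E14.5, then 63.7, 73.2 and 63.3 at E16.5, then 74.2, 76.99 and 81.1 at E18.5, then 71.3, 72.9 and 76.1 at P0.5. Epithelial Pcdh7 stood at 97.8, 103 and 97.3 CPM at E14.5, then 107, 111 and 119.6 at E16.5, then 194, 189.8 and 217 at E18.5, then 192, 161 and 181 at P0.5. Fiber Pcdh7 lay below every epithelium library at each of the 4 stages, and the averaged difference was log2 -1.11 ± 0.04 SE (adjusted p = 4.77e-19). Pcdh19 lies on the X chromosome and acts together with N-cadherin in zebrafish. Fiber Pcdh19 stood at 3.18, 2.99 and 2.698 CPM at E14.5, then 3.77, 1.83 and 2.71 at E16.5, then 3.02, 4.12 and 2.92 at E18.5, then 2.66, 2.08 and 3.88 at P0.5. Epithelial Pcdh19 stood at 54.3, 50.6 and 50.4 CPM at E14.5, then 58.5, 56.1 and 56.01 at E16.5, then 111, 108 and 101 at E18.5, then 87.1, 74.95 and 63.99 at P0.5. Fiber Pcdh19 lay below every epithelium library at each of the 4 stages, at log2 -4.57 ± 0.08 SE on average (adjusted p = 1.36e-24). A gene on the opposite strand overlaps each of Pcdh7, Pcdh10 and Pcdh19, and the strand setting of the counting is not given, so some of their reads may belong to that partner.

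Pcdh9 and Pcdh10, both best known from the brain, rose in epithelium. Pcdh9 stood at 0.862, 1.402 and 1.35 CPM at E14.5, then 1.09, 1.66 and 0.374 at E16.5, then 0.777, 1.46 and 1.15 at E18.5, then 1.01, 1.44 and 0.8397 at P0.5 in fiber. Epithelial Pcdh9 stood at 3.72, 4.69 and 3.96 CPM at E14.5, then 3.33, 3.96 and 5.098 at E16.5, then 13.5, 13 and 23.98 at E18.5, then 17.2, 14.7 and 11.2 at P0.5. Fiber Pcdh9 lay below every epithelium library at each of the 4 stages, and epithelium rose by log2 1.79 ± 0.24 SE between E14.5 and P0.5 (adjusted p = 1.35e-06). Pcdh10 (chr3:45378398-45435623, plus strand) stood at 0.398, 0.2804 and 0.253 CPM at E14.5, then 0.496, 0.166 and 0.467 at E16.5, then 0.691, 0.133 and 0.461 at E18.5, then 0.7596, 0.798 and 0.6298 at P0.5 in fiber. Epithelial Pcdh10 stood at 3.32, 2.48 and 2.7 CPM at E14.5, then 2.17, 2.39 and 3.82 at E16.5, then 8.51, 9.43 and 10.01 at E18.5, then 10.6, 8.33 and 6.68 at P0.5. Fiber Pcdh10 lay below every epithelium library at each of the 4 stages, and epithelium rose by log2 1.59 ± 0.21 SE (adjusted p = 9.63e-07).

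Pcdh12 and Pcdh18 were among the members with the lowest fiber to epithelium ratio. Pcdh12 is a protocadherin of endothelial cells. Fiber Pcdh12 stood at 0.0663, 0.561 and 0.169 CPM at E14.5, then 1.19, 0 and 0.2802 at E16.5, then 0, 0.399 and 0.307 at E18.5, then 0.3798, 0.0798 and 0.105 at P0.5. Epithelial Pcdh12 stood at 17.02, 12.6 and 17.5 CPM at E14.5, then 6.67, 8.09 and 11.02 at E16.5, then 11.97, 12.7 and 8.46 at E18.5, then 6.77, 5.64 and 7.78 at P0.5. Fiber Pcdh12 lay below every epithelium library at each of the 4 stages, at log2 -5.26 ± 0.25 SE on average (adjusted p = 9.94e-16), and epithelium fell (log2 -1.22 ± 0.26 SE) between E14.5 and P0.5. Pcdh18 has been described in brain and mesenchyme. Fiber Pcdh18 stood at 1.86, 1.87 and 2.11 CPM at E14.5, then 1.29, 0.831 and 1.401 at E16.5, then 0.345, 1.596 and 1.84 at E18.5, then 0.886, 0.718 and 1.26 at P0.5. Epithelial Pcdh18 stood at 37.2, 36.4 and 33.4 CPM at E14.5, then 21.01, 19.3 and 23.5 at E16.5, then 36.2, 32.5 and 34.3 at E18.5, then 26.6, 24.5 and 22.7 at P0.5. Fiber Pcdh18 lay below every epithelium library at each of the 4 stages, at log2 -4.46 ± 0.10 SE on average (adjusted p = 3.11e-22). Pcdh1, known from airway epithelium, was lower in fiber at every stage as well. Fiber Pcdh1 stood at 1.13, 1.59 and 0.5901 CPM at E14.5, then 1.39, 1.08 and 1.21 at E16.5, then 1.12, 0.665 and 0.999 at E18.5, then 0.633, 0.399 and 1.26 at P0.5. Epithelial Pcdh1 stood at 14.1, 10.3 and 13.7 CPM at E14.5, then 5.89, 6.87 and 8.55 at E16.5, then 9.91, 11.8 and 7.53 at E18.5, then 9.601, 7.62 and 8.83 at P0.5. Fiber Pcdh1 lay below every epithelium library at each of the 4 stages, at log2 -3.23 ± 0.14 SE on average.

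Markers of endothelium moved with these 3 genes. All 10 endothelial markers were lower in fiber, with sums of 21.8 to 45.1 CPM in fiber libraries and 265 to 499.7 CPM in epithelium libraries. All 7 mural cell markers, 6 of 8 mesenchyme markers and 5 of 6 macrophage markers were also lower in fiber. The mesenchyme sums were 39.7 to 114 CPM in fiber and 372 to 741 CPM in epithelium, with Lum at 0 in P0.5 fiber. The mural sums were 30.1 to 57.9 CPM in fiber and 261 to 506 CPM in epithelium, and the macrophage sums 1.29 to 4.57 CPM in fiber and 11.1 to 29.3 CPM in epithelium. Within epithelium 6 of 8 mesenchyme markers fell between E14.5 and P0.5, while Cdh11 rose. The part of these cells in the tissue differences of Pcdh12, Pcdh18, Pcdh1 and Cdh11 was not tested.

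Per kilobase of exon, counting only the 28 members that share no exon with another gene of the same strand, the highest mean levels in fiber were those of Cdh2 (84.9 CPM per kb, 79.3 to 89.6 over 12 libraries), Cdh4 (13.1, 8.32 to 19.3), Pcdh7 (6.28, 4.25 to 7.65), Cdh1 (4.39, 2.69 to 7.19) and Pcdh17 (3.34, 0.63 to 8.32). In epithelium they were Cdh1 (107.6 CPM per kb, 85.1 to 127), Cdh2 (70.9, 54.4 to 88.2), Pcdh7 (13.9, 9.18 to 20.5), Cdh4 (13.1, 9.30 to 16.2) and Pcdh19 (6.94, 4.81 to 10.6). In fiber the ranges of Pcdh7, Cdh1 and Pcdh17 overlap, and that of Cdh4 touches the upper end of Pcdh17. In epithelium the ranges of Cdh1 and Cdh2 overlap, but within each of the 12 libraries Cdh1 exceeded Cdh2 per kilobase, by at least 1.32-fold. The ranges of Pcdh7, Cdh4 and Pcdh19 in epithelium overlap as well. All these ranges pool the stages, so by themselves they do not fix the order of the other members named. Cdh2 stands clear of every other member in fiber.

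The clustered genes are given by array, and the difference between arrays was not itself tested. In epithelium all 11 Pcdhb genes rose between E14.5 and P0.5, by log2 2.04 to 3.53, and 0 of the 21 Pcdhg genes passed, at log2 -0.40 to 0.61 (edgeR; 3 were higher and 1 lower at an unadjusted p under 0.05, and DESeq2 gave 0). Of all genes, 10.1% rose and 3.21% fell in epithelium over that course. In fiber 5 of 11 Pcdhb genes rose with TMM, where 6.69% of all genes did, and 2 of 21 Pcdhg genes fell, where 5.24% did. Summed over the 11 Pcdhb genes, fiber stood, in stage order, at 20.6 ± 0.29, 24.9 ± 1.34, 26.4 ± 1.27 and 33.6 ± 1.48 CPM. Epithelium stood at 15.9 ± 1.89, 28.5 ± 2.54, 66.2 ± 7.53 and 90.4 ± 7.51 CPM (SD, n = 3 each). The sum over the 21 Pcdhg genes was 139 ± 3.33, 119 ± 4.70, 100.6 ± 12.99 and 98.6 ± 21.6 CPM in fiber. It was 185 ± 13.1, 172 ± 0.80, 208 ± 10.3 and 207 ± 13.7 CPM in epithelium. Within a library the Pcdhb to Pcdhg count ratio in fiber was 0.148 ± 0.0033, 0.208 ± 0.0033, 0.266 ± 0.035 and 0.350 ± 0.064, and in epithelium it was 0.087 ± 0.017, 0.165 ± 0.014, 0.318 ± 0.037 and 0.439 ± 0.055. That ratio needs no scaling between libraries, and it was higher at P0.5 than at E14.5 in every library of both tissues.

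**Figure D3:**
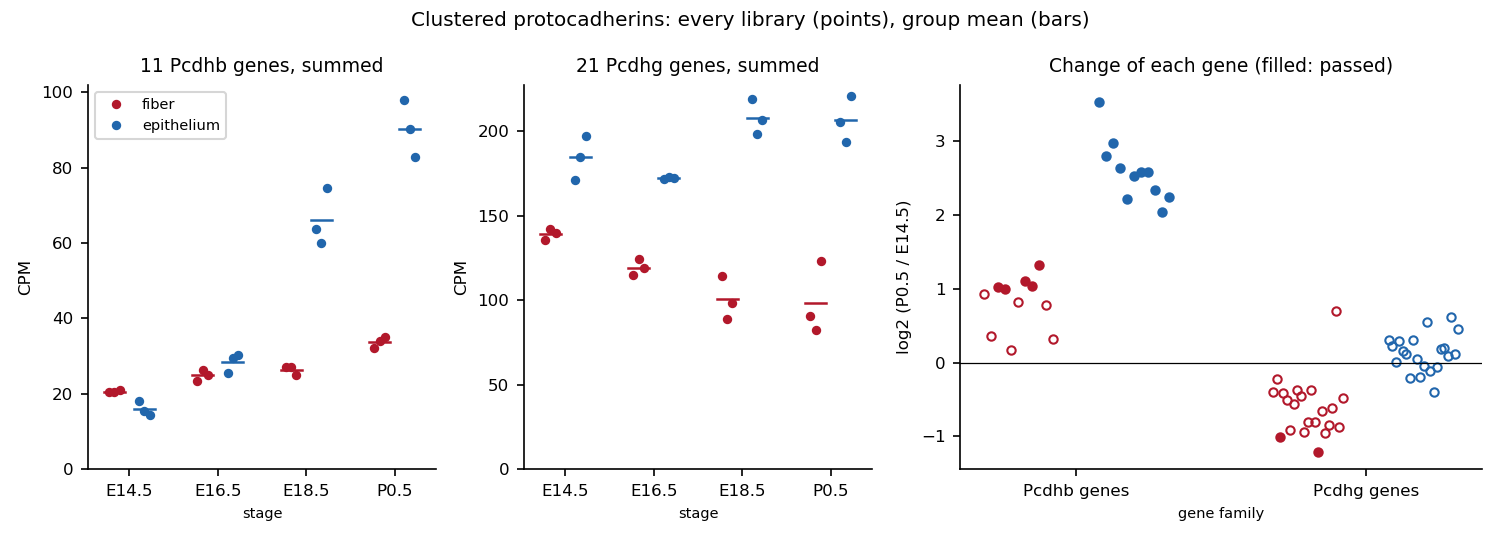
Summed CPM of 11 Pcdhb and 21 Pcdhg genes by stage in fiber (red, left) and epithelium (blue, right), with points for libraries and bars for means, and the log2 P0.5 to E14.5 change of each gene (filled, passed the test with TMM). The Pcdhb sum in epithelium climbs to 82.9 to 97.9 CPM at P0.5, and all 11 epithelium Pcdhb points are filled while none of the 21 Pcdhg points is.

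The Pcdhb genes, intronless and read from their own promoters, were lower in fiber mainly at the later stages. At E14.5 only Pcdhb21 was lower in fiber and Pcdhb14 higher, against 19.4% and 14% of all genes. At P0.5 all 11 were lower, where 24.5% of all genes were. Pcdhb16 stood at 2.65, 2.15 and 2.53 CPM at E14.5, then 3.08, 3.66 and 3.83 at E16.5, then 3.11, 2.13 and 3.15 at E18.5, then 4.68, 4.87 and 5.25 at P0.5 in fiber. Epithelial Pcdhb16 stood at 2.61, 2.14 and 2.64 CPM at E14.5, then 3.64, 4.19 and 5.32 at E16.5, then 11.6, 10.1 and 14.1 at E18.5, then 16.2, 15.95 and 14.2 at P0.5. Fiber Pcdhb16 lay below every epithelium library at E18.5 and P0.5 and overlapping epithelium at E14.5 and E16.5, and its rise in epithelium was log2 2.64 ± 0.16 SE (adjusted p = 2.66e-12). Its averaged difference was close to the 2-fold threshold, and leaving out any of 11 of the 24 libraries ended that call (log2 -0.9637 to -0.9989). Pcdhb17 stood at 4.71, 5.23 and 4.72 CPM at E14.5, then 3.77, 5.57 and 4.76 at E16.5, then 5.96, 4.92 and 4.69 at E18.5, then 4.18, 5.99 and 6.09 at P0.5 in fiber. Epithelial Pcdhb17 stood at 3.48, 2.07 and 2.22 CPM at E14.5, then 3.64, 4.31 and 5.02 at E16.5, then 10.6, 10.2 and 11.6 at E18.5, then 12.2, 12.4 and 11.03 at P0.5. With TMM scaling fiber Pcdhb17 lay above every epithelium library at E14.5, below every epithelium library at E18.5 and P0.5 and overlapping epithelium at E16.5. The change of its tissue difference was log2 -2.04 ± 0.25 SE. Pcdhb14 stood at 2.59, 2.15 and 2.78 CPM at E14.5, then 3.17, 2.66 and 1.59 at E16.5, then 3.11, 4.92 and 2.996 at E18.5, then 1.65, 4.07 and 3.67 at P0.5 in fiber. Epithelial Pcdhb14 stood at 1.19, 1.17 and 1.14 CPM at E14.5, then 2.25, 2.503 and 2.32 at E16.5, then 5.52, 3.91 and 4.501 at E18.5, then 7.47, 8.71 and 8.22 at P0.5. It was the 1 member that passed as higher in fiber at one stage (E14.5, log2 1.11 ± 0.30 SE with TMM) and as lower at another (P0.5, log2 -1.32 ± 0.23 SE).

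Pcdhb18 stood at 2.06, 2.71 and 2.53 CPM at E14.5, then 4.46, 3.49 and 4.39 at E16.5, then 3.89, 3.72 and 3.303 at E18.5, then 4.18, 4.23 and 4.304 at P0.5 in fiber. Pcdhb18 epithelium values were 2.22, 2.21 and 1.38 CPM at E14.5, then 3.64, 4.08 and 3.899 at E16.5, then 7.78, 7.31 and 9.31 at E18.5, then 12.1, 10.95 and 9.99 at P0.5. Fiber Pcdhb18 lay below every epithelium library at E18.5 and P0.5 and overlapping epithelium at E14.5 and E16.5, and epithelium rose by log2 2.52. Pcdhb19 stood at 2.32, 1.78 and 1.43 CPM at E14.5, then 1.98, 2.66 and 2.52 at E16.5, then 3.97, 1.995 and 2.92 at E18.5, then 4.31, 3.83 and 4.09 at P0.5 in fiber. Pcdhb19 epithelium values were 1.74, 1.93 and 1.32 CPM at E14.5, then 2.56, 3.09 and 2.099 at E16.5, then 6.72, 6.12 and 9.31 at E18.5, then 12.4, 9.67 and 7.89 at P0.5. Fiber Pcdhb19 lay below every epithelium library at E18.5 and P0.5 and overlapping epithelium at E14.5 and E16.5, and both tissues rose, fiber by log2 1.11 and epithelium by log2 2.59. Pcdhb20 stood at 1.79, 1.78 and 1.43 CPM at E14.5, then 1.69, 1.75 and 2.802 at E16.5, then 1.99, 1.596 and 2.304 at E18.5, then 4.43, 2.95 and 3.15 at P0.5 in fiber. Pcdhb20 epithelium values were 1.35, 1.24 and 1.08 CPM at E14.5, then 2.09, 2.15 and 2.17 at E16.5, then 5.06, 6.12 and 5.199 at E18.5, then 8.96, 6.28 and 6.79 at P0.5. Here too both tissues rose, fiber by log2 1.04 and epithelium by log2 2.59. The rises of Pcdhb15, Pcdhb16, Pcdhb19, Pcdhb20 and Pcdhb21 in fiber were at most 1.32 on the log2 scale with TMM. The call ended without fiber E14.5 replicate 3 (log2 0.95) or P0.5 replicate 1 (log2 0.86) for Pcdhb20, without E14.5 replicate 3 (log2 0.96) for Pcdhb19, without E14.5 replicate 2 (log2 0.93) or P0.5 replicate 3 (log2 0.96) for Pcdhb16, and in 4 of the fits that left out 1 library for Pcdhb15 (adjusted p = 0.0558 to 0.179). Only Pcdhb21 of the 5 was called in every such fit, and by library size alone only 3 members in all rose in fiber.

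Pcdhb22 stood at 1.52, 2.71 and 2.45 CPM at E14.5, then 1.79, 1.995 and 2.06 at E16.5, then 2.59, 3.06 and 2.304 at E18.5, then 4.18, 3.99 and 3.04 at P0.5 in fiber. Pcdhb22 epithelium values were 1.98, 1.73 and 2.1 CPM at E14.5, then 3.26, 3.9 and 4.499 at E16.5, then 6.45, 4.76 and 6.05 at E18.5, then 8.83, 8.26 and 6.95 at P0.5. Fiber Pcdhb22 lay below every epithelium library at E16.5, E18.5 and P0.5 and overlapping epithelium at E14.5. Pcdhb7 stood at 1.26, 1.22 and 1.096 CPM at E14.5, then 1.49, 1.83 and 0.747 at E16.5, then 0.518, 1.86 and 0.999 at E18.5, then 1.39, 1.596 and 1.47 at P0.5 in fiber. Pcdhb7 epithelium values were 1.27, 0.897 and 1.08 CPM at E14.5, then 1.63, 1.75 and 1.72 at E16.5, then 2.26, 3.65 and 4.35 at E18.5, then 4.38, 4.997 and 6.01 at P0.5. Fiber Pcdhb7 lay below every epithelium library at E18.5 and P0.5 and overlapping epithelium at E14.5 and E16.5, and the change of the tissue difference was log2 -1.92. Pcdhb21 stood at 0.5302, 0.2804 and 0.506 CPM at E14.5, then 0.694, 1.16 and 1.12 at E16.5, then 0.777, 0.931 and 1.61 at E18.5, then 1.14, 1.04 and 1.26 at P0.5 in fiber. Pcdhb21 epithelium values were 1.27, 0.828 and 0.9001 CPM at E14.5, then 1.24, 1.34 and 1.5 at E16.5, then 3.13, 3.48 and 4.58 at E18.5, then 5.93, 4.997 and 4.25 at P0.5. Fiber Pcdhb21 lay below every epithelium library at each of the 4 stages. Pcdhb11 and Pcdhb15 stayed under a mean of 5 CPM in every group, at 0.0935 to 1.68 CPM in fiber libraries and 0.24 to 4.83 CPM in epithelium libraries, and both were lower in fiber at E18.5 and P0.5. Pcdhb21 and Pcdhb22 share exons with another gene on the same strand, so the split of their reads is uncertain.

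The 21 Pcdhg genes join a first exon of their own to shared constant exons, and all 21 share exons with other genes of the array, so the value of each depends on how shared reads were assigned. At P0.5 14 of the 21 were lower in fiber, where 24.5% of all genes were, and at E18.5 10, where 24.2% were. At E16.5 0 were lower (edgeR, and 15 at an unadjusted p under 0.05 with no fold threshold), where 20.4% of all genes were. At E14.5 Pcdhgc3 and Pcdhgc4 were lower, where 19.4% of all genes were. Pcdhgc3 had the highest counts of the array. Fiber Pcdhgc3 stood at 10.2, 10.6 and 8.35 CPM at E14.5, then 12.8, 11.5 and 10.1 at E16.5, then 11.7, 11.3 and 12.8 at E18.5, then 15.2, 13.3 and 19.1 at P0.5. Epithelial Pcdhgc3 stood at 24.8, 23.3 and 28.1 CPM at E14.5, then 21.4, 20.6 and 21.97 at E16.5, then 40.4, 36.9 and 37.1 at E18.5, then 37.8, 37.2 and 41.7 at P0.5. Fiber Pcdhgc3 lay below every epithelium library at each of the 4 stages, at log2 -1.31 ± 0.06 SE on average (adjusted p = 8.89e-17). Pcdhgc4 is required for neuron survival in mice. Fiber Pcdhgc4 stood at 1.99, 2.15 and 1.602 CPM at E14.5, then 2.28, 2.41 and 1.12 at E16.5, then 1.04, 1.46 and 1.23 at E18.5, then 1.01, 0.798 and 1.37 at P0.5. Epithelial Pcdhgc4 stood at 4.75, 5.31 and 4.26 CPM at E14.5, then 3.02, 3.96 and 3.599 at E16.5, then 4.99, 3.99 and 4.89 at E18.5, then 5.28, 4.68 and 5.46 at P0.5. Fiber Pcdhgc4 lay below every epithelium library at each of the 4 stages, at log2 -1.599 ± 0.12 SE on average.

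Among the Pcdhga genes, Pcdhga10 stood at 5.04, 5.51 and 5.82 CPM at E14.5, then 4.27, 5.99 and 4.296 at E16.5, then 3.97, 3.06 and 3.61 at E18.5, then 3.04, 3.51 and 5.77 at P0.5 in fiber. Pcdhga10 epithelium values were 7.203, 7.798 and 11.2 CPM at E14.5, then 8.61, 8.38 and 7.05 at E16.5, then 10.6, 7.73 and 11.02 at E18.5, then 10.2, 9.74 and 12.7 at P0.5. Fiber Pcdhga10 lay below every epithelium library at each of the 4 stages. Pcdhga12 stood at 5.501, 5.14 and 5.56 CPM at E14.5, then 5.16, 4.66 and 3.55 at E16.5, then 4.06, 1.995 and 2.38 at E18.5, then 2.66, 2.16 and 3.36 at P0.5 in fiber. Pcdhga12 epithelium values were 7.76, 7.38 and 7.62 CPM at E14.5, then 6.36, 6.403 and 6.298 at E16.5, then 7.25, 7.31 and 9.47 at E18.5, then 7.797, 6.86 and 8.22 at P0.5. Fiber Pcdhga12 lay below every epithelium library at each of the 4 stages, and Pcdhga12 fell in fiber (log2 -1.01 ± 0.21 SE), a call that was lost without fiber E14.5 replicate 1, E14.5 replicate 3 or P0.5 replicate 2 (log2 -0.83 to -0.99). Pcdhga4 stood at 6.43, 6.92 and 7.25 CPM at E14.5, then 4.27, 5.65 and 5.79 at E16.5, then 5.698, 4.12 and 5.3 at E18.5, then 3.04, 3.35 and 4.51 at P0.5 in fiber. Pcdhga4 epithelium values were 6.89, 7.52 and 8.16 CPM at E14.5, then 8.14, 7.8 and 7.65 at E16.5, then 10.4, 8.75 and 7.61 at E18.5, then 8.12, 7.94 and 8.44 at P0.5. Fiber Pcdhga4 lay below every epithelium library at E16.5, E18.5 and P0.5 and overlapping epithelium at E14.5. Pcdhga8 stood at 9.15, 8.88 and 11.3 CPM at E14.5, then 8.53, 9.31 and 9.81 at E16.5, then 6.82, 3.99 and 6.68 at E18.5, then 5.57, 3.91 and 5.98 at P0.5 in fiber. Pcdhga8 epithelium values were 10.6, 14.2 and 11.6 CPM at E14.5, then 10.9, 11.8 and 9.75 at E16.5, then 10.6, 10.96 and 10.9 at E18.5, then 11.5, 8.91 and 11.5 at P0.5. Fiber Pcdhga8 lay below every epithelium library at E18.5 and P0.5 and overlapping epithelium at E14.5 and E16.5. Pcdhga9 stood at 8.55, 9.999 and 10.96 CPM at E14.5, then 6.85, 6.82 and 7.004 at E16.5, then 6.13, 4.92 and 5.22 at E18.5, then 4.43, 4.23 and 8.19 at P0.5 in fiber. Pcdhga9 epithelium values were 12.6, 13.2 and 12.6 CPM at E14.5, then 10.7, 11.5 and 11.9 at E16.5, then 13.7, 11.3 and 11.8 at E18.5, then 12.2, 12.4 and 12.5 at P0.5. Fiber Pcdhga9 lay below every epithelium library at each of the 4 stages. P0.5 fiber replicate 3 was the highest of its 3 libraries for each of these 5 genes.

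Among the Pcdhgb genes, Pcdhgb6 stood at 6.098, 6.92 and 6.15 CPM at E14.5, then 6.85, 5.82 and 6.63 at E16.5, then 4.66, 3.19 and 4.53 at E18.5, then 2.91, 2.55 and 4.51 at P0.5 in fiber. Pcdhgb6 epithelium values were 8.79, 8.56 and 11.8 CPM at E14.5, then 8.92, 9.02 and 8.32 at E16.5, then 11.9, 11.9 and 11.2 at E18.5, then 10.5, 10.9 and 11.8 at P0.5. Fiber Pcdhgb6 lay below every epithelium library at each of the 4 stages, and the averaged difference was log2 -1.07 ± 0.08 SE. Pcdhgb7 stood at 3.45, 4.67 and 4.89 CPM at E14.5, then 4.17, 5.65 and 4.202 at E16.5, then 3.11, 2.39 and 2.23 at E18.5, then 1.65, 1.92 and 3.57 at P0.5 in fiber. Pcdhgb7 epithelium values were 7.52, 7.11 and 8.401 CPM at E14.5, then 6.28, 6.87 and 6.82 at E16.5, then 8.11, 8.16 and 10.5 at E18.5, then 9.92, 7.43 and 9.16 at P0.5. Fiber Pcdhgb7 lay below every epithelium library at each of the 4 stages, and the averaged difference was log2 -1.26 ± 0.10 SE. Pcdhgb4 stood at 7.62, 8.69 and 9.11 CPM at E14.5, then 6.05, 5.32 and 5.42 at E16.5, then 6.39, 4.12 and 6.45 at E18.5, then 3.17, 3.11 and 4.72 at P0.5 in fiber. Pcdhgb4 epithelium values were 8.79, 11.9 and 10.6 CPM at E14.5, then 9.07, 9.72 and 8.92 at E16.5, then 10.5, 8.58 and 9.55 at E18.5, then 7.28, 7.62 and 8.83 at P0.5. Fiber Pcdhgb4 lay below every epithelium library at E16.5, E18.5 and P0.5 and overlapping epithelium at E14.5, and Pcdhgb4 fell in fiber (log2 -1.21 ± 0.18 SE). Pcdhgb1 stood at 4.24, 4.11 and 3.96 CPM at E14.5, then 3.67, 3.33 and 4.58 at E16.5, then 4.14, 2.53 and 2.23 at E18.5, then 2.28, 3.27 and 3.88 at P0.5 in fiber. Pcdhgb1 epithelium values were 4.83, 4.69 and 5.16 CPM at E14.5, then 4.88, 6.05 and 6.598 at E16.5, then 7.12, 5.52 and 5.898 at E18.5, then 6.96, 7.495 and 7.06 at P0.5. Fiber Pcdhgb1 lay below every epithelium library at each of the 4 stages. Pcdhgb5 stood at 4.44, 6.36 and 4.47 CPM at E14.5, then 4.17, 4.82 and 4.67 at E16.5, then 3.28, 3.19 and 2.92 at E18.5, then 2.41, 2.08 and 5.25 at P0.5 in fiber. Pcdhgb5 epithelium values were 6.33, 5.59 and 8.16 CPM at E14.5, then 5.89, 5.71 and 4.95 at E16.5, then 5.52, 4.25 and 6.05 at E18.5, then 5.61, 4.55 and 8.99 at P0.5. Fiber Pcdhgb5 lay below every epithelium library at E16.5 and E18.5 and overlapping epithelium at E14.5 and P0.5. Pcdhgb8 stood at 4.57, 4.21 and 4.89 CPM at E14.5, then 3.17, 3.49 and 3.74 at E16.5, then 3.28, 1.86 and 1.84 at E18.5, then 3.17, 2.79 and 3.04 at P0.5 in fiber. Pcdhgb8 epithelium values were 5.62, 6.07 and 6.84 CPM at E14.5, then 7.67, 5.18 and 6.07 at E16.5, then 7.52, 5.95 and 6.05 at E18.5, then 5.74, 6.41 and 7.61 at P0.5. Fiber Pcdhgb8 lay below every epithelium library at each of the 4 stages. Pcdhga2, Pcdhga3, Pcdhga5, Pcdhga6, Pcdhga7, Pcdhga11 and Pcdhgb2 passed in none of the comparisons with TMM, and Pcdhga6 was lower in fiber by library size alone (log2 -1.15).

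Pcdhac2, the single Pcdha gene in the table, was higher in fiber, shares exons with its array and stayed under a mean of 5 CPM. In fiber it stood at 1.22 to 6.40 CPM and in epithelium at 0.060 to 1.24 CPM. Fiber Pcdhac2 lay above every epithelium library at each of the 4 stages, at log2 2.63 ± 0.17 SE on average (adjusted p = 5.24e-13). Both tissues rose between E14.5 and P0.5, fiber by log2 1.68 ± 0.25 SE and epithelium by log2 3.34 ± 0.49 SE, the second against only 4 counts over the 3 E14.5 libraries.

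In epithelium 20 of 52 members rose between E14.5 and P0.5, where 10.1% of all genes did, and 2 (Pcdh12, Pcdh17) fell, where 3.21% did. In fiber 8 rose, where 6.69% of all genes did, and 5 fell, where 5.24% did, and by library size alone those counts were 3 and 21, where 2.95% and 17.4% of all genes did. With crystallins left out of the library sizes 4 rose and 10 fell, where 5.4% and 6.84% of all genes did. The 5 that fell with TMM were Cdh6, Cdh24, Pcdh18, Pcdhga12 and Pcdhgb4. Without P0.5 fiber replicate 3 the number falling in fiber was 13, and without E14.5 fiber replicate 3 it was 3. The fall of Pcdh18 was not called without fiber E14.5 replicate 3 (log2 -0.98) or P0.5 replicate 2 (log2 -0.83). The tissue difference changed between E14.5 and P0.5 towards lower fiber for 22 members, where 7.92% of all genes did so, and towards higher fiber for Pcdh17, where 3.77% did. By library size alone it changed towards lower fiber for 43 members, where 26.2% of all genes did so, and with crystallins left out of the library sizes for 29, where 12% did. The 22 with TMM were all 5 type II cadherins, Cdh3, Pcdh9, Pcdhac2, 10 of 11 Pcdhb genes and 4 of 21 Pcdhg genes. Of the 24 libraries left out one at a time, 14 ended the call of this change for Cdh3 (adjusted p = 0.0512 to 0.156), 6 for Pcdhac2 (adjusted p = 0.0508 to 0.114) and 3 for Cdh20 (adjusted p = 0.053 to 0.124).

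Of the 20 members that rose in epithelium, 15 also rose between E16.5 and E18.5 alone, a comparison added after the data were seen, where 6.75% of all genes did. The 15 were Cdh6, Cdh11, Cdh20, Cdh23, Pcdh9, Pcdh10, Pcdhac2 and 8 Pcdhb genes. Over that step no member fell, where 0.547% did (edgeR; 2 members were lower at an unadjusted p under 0.05, and DESeq2 gave 0). The largest rises were those of Cdh20 (log2 3.94 ± 0.34 SE), Cdh11 (log2 2.75 ± 0.23 SE), Cdh6 (log2 2.27 ± 0.22 SE) and Pcdh9 (log2 2.02 ± 0.25 SE). In fiber Pcdh17 alone rose over the same step, where 1.91% of all genes did, and none fell, where 0.724% did (edgeR; 10 were lower at an unadjusted p under 0.05, and DESeq2 gave 0).

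Markers of retina and ciliary margin and of pigment cells moved with that step. Of 11 retina and ciliary margin markers, 10 rose in epithelium over the step, and of 6 pigment cell markers all 6 did. The summed retina and ciliary margin level in epithelium was 11.3, 29.6 and 13.6 CPM in the 3 libraries of E14.5, then 15.6, 28.7 and 62.4 at E16.5, then 305, 318 and 428 at E18.5, then 341, 322 and 253 at P0.5, while fiber libraries ranged from 8.98 to 17.3 CPM. The library with the highest sum at E16.5 and at E18.5, replicate 3 in both, also had the highest Cdh11, Cdh20, Cdh6, Pcdh9 and Pcdh10 of its stage. The P0.5 library with the lowest sum, again replicate 3, had the lowest of these same 5 genes. Replicate 3 likewise had the highest Pcdhb sum at E16.5 (30.4 CPM) and at E18.5 (74.7 CPM) and the lowest at P0.5 (82.9 CPM). Cdh23 and Pcdhac2, which also rose over the step, followed the marker sum less closely. Cdh23 did so at E18.5 and P0.5, but at E16.5 replicate 2 exceeded replicate 3 (3.26 against 3.07 CPM). Pcdhac2 in replicate 3 was highest at E18.5 (1.24 CPM), but lowest at E16.5 (0.225 CPM) and highest at P0.5 (1.16 CPM). At E14.5 replicate 2 had the highest marker sum (29.6 CPM), with the highest Cdh11, Cdh20 and Pcdh9 of its stage but the lowest Cdh6 and Pcdh10. Its Pcdhb sum (15.4 CPM) lay between those of the other E14.5 libraries. The Pcdhb sum in epithelium was 25.6, 29.4 and 30.4 CPM at E16.5 against 18.1, 15.4 and 14.4 CPM at E14.5, and stood higher at P0.5 (82.9 to 97.9 CPM) than at E18.5 (60.2 to 74.7 CPM). Without Mitf, whose fiber stage means were 87.2 to 98.9 CPM, the pigment sum was 1.89 to 5.58 CPM in fiber and 1.86 to 10.8, 141 to 164 and 65.1 to 150.1 CPM in epithelium of the first 2 stages together, of E18.5 and of P0.5. Mlana was at 0 in E14.5 and E16.5 fiber. The part of these markers' cells in the rises was not tested. Over E14.5 and E16.5 only, before the step, 3 members were higher and 14 lower in fiber, against 14% and 20.1% of all genes.

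**Figure D4:**
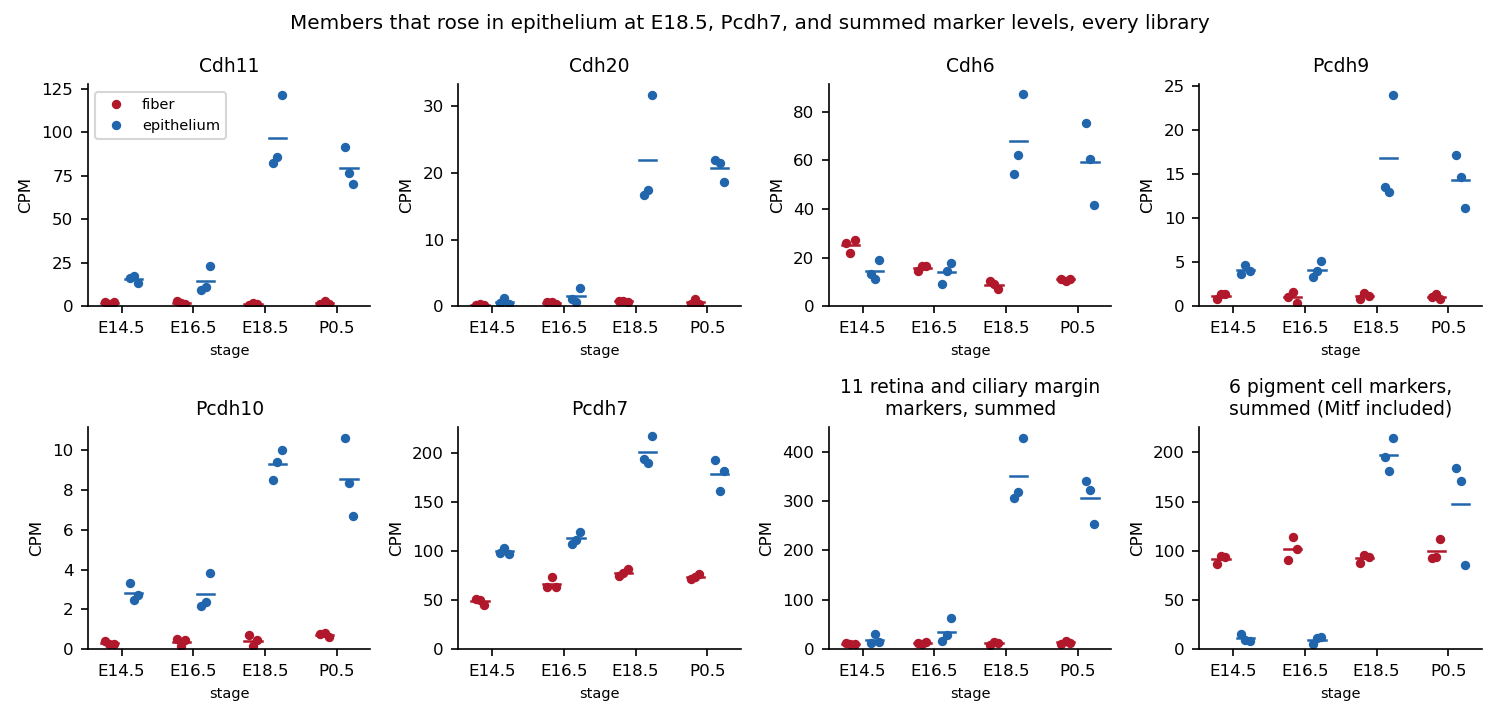
CPM of 5 members that rose in epithelium between E16.5 and E18.5, of Pcdh7, and of 2 summed marker lists, in fiber (red, left) and epithelium (blue, right), with each point a library and each bar the mean of 3. The retina and ciliary margin sum in epithelium is 305 to 428 CPM at E18.5 and 15.6 to 62.4 CPM at E16.5, and the Cdh11, Cdh20, Cdh6, Pcdh9 and Pcdh10 panels step up there too.

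Partners of the cadherins were examined as lists chosen for their known roles, and their counts stand against 15.7% of all genes higher and 22.2% lower in fiber. Of 9 catenins tested, 3 were higher and 1 lower in fiber over the stages together, and their median log2 was 0.42. Ctnna2, the neural alpha-catenin, averaged 262 ± 30.1 CPM in fiber against 15.3 ± 1.05 CPM for epithelium of P0.5, and at E14.5 it averaged 71.5 ± 4.37 CPM in fiber against 6.34 ± 0.70 CPM for epithelium (SD, n = 3 each; averaged log2 3.97 ± 0.07 SE). Arvcf (log2 1.34) and Ctnnd2 (log2 1.10), members of the p120-catenin family, were the other two. Jup, which encodes plakoglobin, was lower (log2 -2.36 ± 0.09 SE). Ctnnb1, beta-catenin itself, averaged 889.8 ± 9.80 CPM in P0.5 fiber against 538 ± 2.97 CPM for epithelium and was under 2-fold on average (log2 0.42). These lists were fitted with TMM alone; by library size alone the median of all genes lay at -1.24.

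Of 11 adherens junction partners, 2 were higher and 4 lower in fiber, with a median log2 of -0.70, where 15.7% and 22.2% of all genes were. Tjp1, the scaffold ZO-1, averaged 1674 ± 39.6 CPM in P0.5 fiber against 260.5 ± 11.3 CPM for epithelium (averaged log2 2.37 ± 0.03 SE), and Nectin4 was the other that was higher (log2 2.72 ± 0.10 SE). Plekha7, which binds p120-catenin at the junction of epithelia, averaged 0.88 ± 0.55 CPM in P0.5 fiber against 31.8 ± 1.61 CPM for epithelium (averaged log2 -4.18 ± 0.09 SE). Vcl (log2 -1.87), Lmo7 (log2 -1.85) and Nectin2 (log2 -1.22) were lower too. Of 7 processing genes, 3 were higher, with a median log2 of 0.83. Adam10, the protease that sheds E- and N-cadherin, averaged 609 ± 31.5 CPM in P0.5 fiber against 156 ± 6.15 CPM for epithelium (averaged log2 2.04 ± 0.03 SE), and Adam17 was also higher (log2 1.16). Of 3 desmosome genes tested Pkp2 was higher (log2 2.56) and Pkp1 lower (log2 -2.90).

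Of 10 other genes of the cadherin superfamily, 3 were higher and 4 lower in fiber, with a median log2 of -0.75, again against 15.7% and 22.2% of all genes. Ret (log2 3.17), Celsr1 (log2 2.05) and Celsr2 (log2 1.13) were higher, and Clstn3 (log2 -2.76), Dchs1 (log2 -2.12), Fat1 (log2 -1.36) and Fat4 (log2 -1.15) were lower. Of 4 repressors of Cdh1 tested, Snai2 was lower in fiber (log2 -3.44 ± 0.22 SE), and Zeb1 (log2 0.52), Zeb2 (log2 0.06) and Tcf3 (log2 -0.96) did not reach 2-fold. Of 8 genes for DNA looping and silencing at the clustered arrays, Smchd1 (log2 -1.19) and Dnmt3b (log2 -1.48) were lower in fiber. Dnmt3b, a DNA methyltransferase, was the only one of the 8 to reach 2-fold in epithelium between E14.5 and P0.5. It fell by 1.05 on the log2 scale, to 7.74 ± 0.56 CPM at P0.5, against 16.01 ± 0.90 CPM at E14.5. The other 7 moved down by less, from log2 -0.54 for Smchd1 to -0.16 for Wapl (edgeR's quasi-likelihood test, adjusted p = 5.54e-08 to 0.0449).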

How the data were processed

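The authors deposited whole-number counts per gene symbol for the 24 libraries of total RNA, made with a stranded kit after ribosomal RNA depletion, per the labels. Per the submitters' processing notes, Trim Galore 0.4.1, TopHat2 2.0.13, HTSeq 0.6.1, Cufflinks 2.2.1 and Cuffdiff were used with the mm10 build; no source used here gives the strand setting of the counting. Counts were fitted with edgeR 4.0.16 (R 4.3.3, limma 3.58.1) as 8 group means with TMM factors, after filterByExpr (minimum count 10, minimum total 15) had removed 184 genes and left 12427, with 16 residual degrees of freedom. The quasi-likelihood test was adjusted by Benjamini-Hochberg over all genes tested, and a call needed an adjusted p under 0.05 and at least 2-fold. Each SE was taken as the log2 difference over the square root of the F statistic, and can be too small for genes near 0 counts. Levels per kilobase used exon lengths of GENCODE M21 (GRCm38), which matched 97.9% of symbols and all 52 members. The method was tried on simulated data for P0.5 against E14.5 in epithelium only, scored without the fold threshold. No difference between tissues was simulated, so that run does not test the scaling.

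The comparisons were fiber against epithelium, averaged and by stage, P0.5 against E14.5 (epithelium, then fiber), and the change of the tissue difference; E18.5 against E16.5 in each tissue was added later. Alternatives were library size alone, crystallins left out of library sizes, DESeq2 size factors, DESeq2 1.42.0, no filter, no fold threshold, a replicate block, each library left out in turn, and the first 2 stages only. Promoters of members on chromosome 18 were not used here. Some genes of these lists are not reported here by name. Members and lists were chosen with earlier results of these data known. Values in every library are given for members reaching a mean of 5 CPM in a group and passing in any comparison, and for Cdh1, Cdh2, Cdh3, Cdh4 and Cdh11. P-values rest on the spread between replicate libraries, pooled over the 8 groups and adjusted by the spread of other genes. For 2 groups of 3 libraries, an exact permutation test could not go below 0.1. Replicates differed by 3.89 to 320 chi-square per degree of freedom, so none was counted as a repeat of another.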

Additional observations from a re-analysis of the deposited data

Results flagged for a closer look

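The fiber to epithelium difference at P0.5 differed from that at E14.5 for 23 members, by the interaction term of edgeR's quasi-likelihood fit at an adjusted p under 0.05 and at least 2-fold. It changed by 4.94 on the log2 scale for Pcdh17, towards fiber. Among the other cadherins and non-clustered protocadherins the log2 change was -3.46 for Cdh20, -3.20 for Cdh6, -2.54 for Cdh11, -2.38 for Cdh3, -2.12 for Cdh18, -1.85 for Pcdh9 and -1.14 for Cdh24. For the Pcdhb genes it was -2.60 for Pcdhb11, -2.43 for Pcdhb14, -2.04 for Pcdhb17, -1.95 for Pcdhb15, -1.92 for Pcdhb7, -1.71 for Pcdhb18, -1.64 for Pcdhb16, -1.55 for Pcdhb20, -1.48 for Pcdhb19 and -1.26 for Pcdhb22. For the remaining clustered genes, whose exons are shared, it was -1.65 for Pcdhac2, -1.13 for Pcdhgb6, -1.05 for Pcdhgb7, -1.02 for Pcdhga4 and -1.02 for Pcdhga12. Leaving out 1 of the 24 libraries ended this call in 14 cases for Cdh3, 6 for Pcdhac2, 6 for Pcdhgb7, 5 for Pcdhga4, 4 for Pcdhga12, 3 for Cdh20 and 1 each for Cdh24, Pcdhb11 and Pcdhgb6. Each of the 22 negative values means that fiber was lower against epithelium at P0.5 than at E14.5.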

How the results depend on the processing

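Scaling and the fold threshold moved the counts of members most. By library size alone, fiber against epithelium gave 2 higher and 47 lower members on average, 2 and 29 at E14.5, and 45 lower at E16.5. The fiber course then gave 3 higher and 21 lower, the tissue difference changed towards lower fiber for 43, and the E18.5 against E16.5 step in fiber gave 0 higher and 4 lower. With crystallins left out of library sizes, 42 members were lower on average and 34 at E16.5, the fiber course gave 4 higher and 10 lower, and the fiber step gave 3 lower. With no fold threshold, fiber gave 44 lower on average, 9 higher and 24 lower at E14.5, 29 lower at E16.5, 5 higher at E18.5 and 5 higher at P0.5. The epithelium course then gave 8 lower, the fiber course 13 higher and 19 lower, the change of the tissue difference 2 higher, the epithelium step 24 higher and 2 lower, and the fiber step 4 higher and 7 lower. Over E14.5 and E16.5 only, 14 members were lower. By library size alone Cdh23 stood at log2 -0.0096 and Pcdhga6 at -1.15 on average, on the other side of 0 from the TMM value. Leaving out 1 library gave 3 to 13 members lower in the fiber course (3 without E14.5 replicate 3, 13 without P0.5 replicate 3), 1 to 2 higher in the fiber step (2 without E18.5 replicate 1) and 0 to 2 lower (1 without E16.5 replicate 3, 2 without E18.5 replicate 1). The change of the tissue difference gave 16 to 28 lower, and the epithelium course 20 higher and 2 lower without each of the libraries. The cause of these moves was not tested.

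Same-numbered libraries of the 2 tissues correlated at -0.0684 to 0.231 in their deviations, with 10 of 12 pairs above 0 and 4 over 0.1, against 6 of 24 different-number pairs above 0, and 14 of 24 libraries correlated best with their own number. The labels do not say whether animals were shared, so the numbers were not used to pair libraries. A separate fit added a replicate block, in which libraries of the same number shared a term across all stages. With that block 38 members were lower in fiber at P0.5, 4 fell in the fiber course and 21 had a lower tissue difference. Over all genes the block gave 4705 calls on average over stages, against 4703 without it. Because the block joined numbers across stages, pairing of the 2 tissues within a stage was not tested. Low counts limit Cdh17, Cdh3, Pcdh12, Cdh20 and Pcdhac2, since 3 counts correspond to 0.199 to 0.399 CPM in fiber and 0.165 to 0.255 CPM in epithelium.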
